A study of Mus musculus with 6 samples.

Results

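The MAP kinase phosphatases are 10 dual-specificity phosphatase genes (Dusp1, Dusp2, Dusp4, Dusp5, Dusp6, Dusp7, Dusp8, Dusp9, Dusp10 and Dusp16), and their transcripts were compared between mammary tumors of mice given TKI258 and tumors of mice given water. The genes were taken by symbol from the platform annotation of a whole-transcript array, using only probe sets that name 1 gene, and where a gene had more than 1 such probe set the one with the highest mean over all 6 arrays was kept. All 10 genes were found among 19937 genes measured this way. The tumors were grown from 4T1 cells, a mouse mammary carcinoma line derived from a Balb/C mouse, of which 750000 were injected into the fourth mammary gland of Balb/C mice. From day 7 the TKI258 group (3 tumors) received 40 mg/kg of TKI258 by mouth daily for 14 days, and the water group (3 tumors) received water on the same schedule. TKI258 (dovitinib) is an inhibitor of receptor tyrosine kinases that include the FGF, VEGF and PDGF receptors. The age of the mice is not given in the sources used here. Each array held RNA of 1 whole tumor, so a signal adds up tumor cells, vessels, stroma and immune cells, and fewer cells of a type cannot be told apart from less RNA per cell.

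A MAP kinase is active when a threonine and a tyrosine of its activation loop carry phosphate, and these phosphatases remove both. Dusp1, Dusp2, Dusp4 and Dusp5 encode nuclear enzymes whose genes are induced rapidly by growth factors or stress. Dusp6, Dusp7 and Dusp9 encode cytoplasmic enzymes that prefer ERK, and Dusp8, Dusp10 and Dusp16 encode enzymes that prefer JNK and p38. Several of the genes are switched on by the kinase that their product switches off, so that they form negative feedback loops. Dusp6 is widely used as a transcript readout of FGF receptor and ERK signaling. In human breast cancer, low DUSP4 has been linked to higher RAS and ERK activity.

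For 4 of the 10 genes, Dusp1, Dusp4, Dusp5 and Dusp10, all TKI258 tumors lay below all water tumors, against 6.49% of all 19937 genes. In the opposite order there were 0 of the 10 genes, against 8.66% of all genes. The promoters of 3 of these 4 genes were available and are shown here as the 250 bases before the transcript start, 5′ to 3′, from RefSeq on build GRCm38.p6. Capitals mark matches to 3 motifs, searched on both strands. They are the cyclic AMP response element TGACGTCA, the ETS motif GGAAGT and the CArG box, the site of serum response factor. The shorter ETS core GGAA was not searched alone and is not marked. The AP-1 site TGANTCA was also searched and had no match in these windows.
Dusp1, chr17:26508473-26508722, - strand: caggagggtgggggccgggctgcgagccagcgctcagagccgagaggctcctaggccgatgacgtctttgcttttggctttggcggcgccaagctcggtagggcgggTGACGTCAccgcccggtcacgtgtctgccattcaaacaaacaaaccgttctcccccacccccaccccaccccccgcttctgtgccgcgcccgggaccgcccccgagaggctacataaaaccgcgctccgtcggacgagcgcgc
Dusp5, chr19:53528895-53529144, + strand: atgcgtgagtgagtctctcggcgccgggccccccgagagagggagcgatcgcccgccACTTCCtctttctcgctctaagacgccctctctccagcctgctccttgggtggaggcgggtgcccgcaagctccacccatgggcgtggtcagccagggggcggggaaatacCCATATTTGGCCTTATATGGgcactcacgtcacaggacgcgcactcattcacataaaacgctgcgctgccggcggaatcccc
Dusp10, chr1:184034131-184034380, + strand: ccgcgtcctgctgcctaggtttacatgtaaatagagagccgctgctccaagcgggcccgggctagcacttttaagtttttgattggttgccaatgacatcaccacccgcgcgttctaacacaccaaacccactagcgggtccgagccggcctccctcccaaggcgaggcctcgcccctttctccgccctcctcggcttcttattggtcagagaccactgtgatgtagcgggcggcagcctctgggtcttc
The Dusp1 window held 1 cyclic AMP response element, 143 to 136 bases before the start. The Dusp5 window held 2 CArG boxes that lie end to end without a gap, CCATATTTGG at 82 to 73 and CCTTATATGG at 72 to 63 bases before the start. It also held 1 match to the ETS motif GGAAGT, on the opposite strand, further upstream. The Dusp10 window held none of the searched letters. Of 32851 RefSeq windows of the same length, 1.55% held a cyclic AMP response element, 1.47% a CArG box, 6.75% an AP-1 site and 19.7% the ETS motif GGAAGT. Windows were found for 8 of the 10 genes, not for Dusp4 or Dusp9. Among the other 5, Dusp8 held 2 cyclic AMP response elements, at 107 to 100 and 63 to 56 bases before the start. Dusp2, Dusp6, Dusp7 and Dusp16 held no match to the searched letters. A match is a string of letters and was not tested for binding.

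The plot of signals by tumor shows all values. They are log2 signals, so a difference of 1 is a doubling, and the level of a gene is compared only with the same gene in other tumors.

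**Figure D1:**
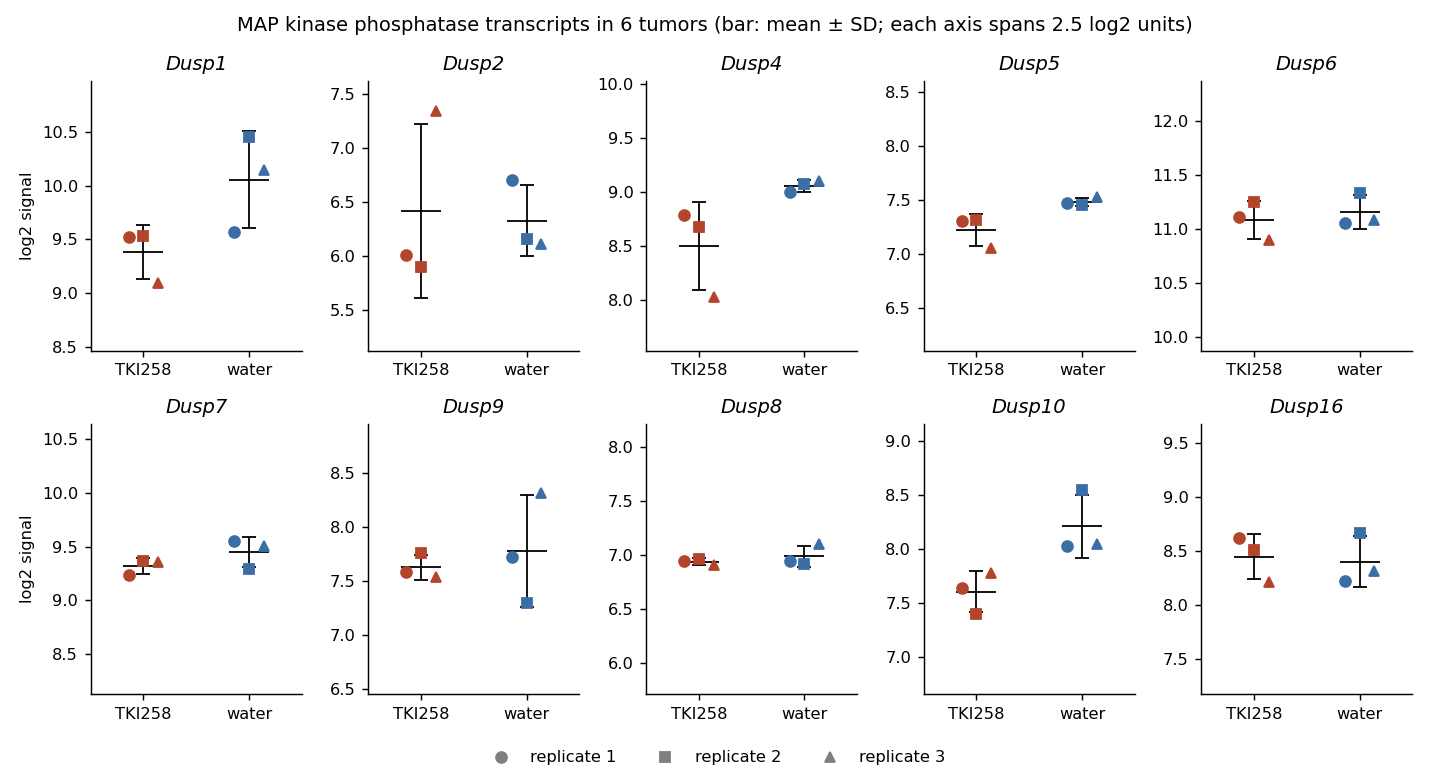
Log2 signal of each MAP kinase phosphatase gene in the 3 TKI258 tumors (left in each panel) and the 3 water tumors (right), with the mean and SD as a bar and marker shapes for the replicate number. In Dusp1, Dusp4, Dusp5 and Dusp10 all TKI258 points lie below all water points, while TKI258 replicate 3 is far above the other tumors in Dusp2.

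Dusp10, which encodes a JNK and p38 phosphatase also called MKP5, had the smallest p of the family. Its log2 signal was 7.64, 7.40 and 7.78 in TKI258 replicates 1, 2 and 3, against 8.04, 8.55 and 8.05 in water replicates 1, 2 and 3. The groups were separated by a gap of 0.26 log2 units, and water replicate 2 was the highest tumor. The mean was 7.61 ± 0.19 in TKI258 tumors and 8.21 ± 0.29 in water tumors (SD, n = 3 each), a log2 difference of -0.61 ± 0.17 (SE) and a 1.52-fold lower level (95% confidence interval of the TKI258 to water ratio 0.493 to 0.874). In the limma model the unadjusted p was 0.0106, and the p adjusted over all 34760 probe sets was 0.572.

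Dusp1, the immediate early phosphatase MKP1, had the largest difference. Its log2 signal was 9.52, 9.53 and 9.10 in TKI258 replicates 1, 2 and 3, against 9.57, 10.45 and 10.15 in water replicates 1, 2 and 3. The groups did not overlap, but water replicate 1 lay only 0.04 above the highest TKI258 tumor, and the separation was carried by water replicates 2 and 3. The mean was 9.38 ± 0.25 in TKI258 tumors and 10.06 ± 0.45 in water tumors (SD, n = 3 each), a log2 difference of -0.67 ± 0.24 (SE) and a 1.59-fold lower level (limma unadjusted p = 0.0281, adjusted p = 0.599).

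Dusp4 (MKP2), a nuclear phosphatase of ERK and other MAP kinases, separated the groups with little spread among water tumors. Its log2 signal was 8.79, 8.68 and 8.03 in TKI258 replicates 1, 2 and 3, against 9.0, 9.07 and 9.11 in water replicates 1, 2 and 3. TKI258 replicate 3 was far below the other TKI258 tumors. The mean was 8.50 ± 0.41 in TKI258 tumors and 9.06 ± 0.06 in water tumors (SD, n = 3 each), a 1.48-fold lower level (limma unadjusted p = 0.0265, adjusted p = 0.594). Without TKI258 replicate 3 the log2 difference was -0.33, against -0.56 with all tumors.

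Dusp5, a nuclear phosphatase specific for ERK and the gene with paired CArG boxes above, showed the same order of groups with a smaller difference. Its log2 signal was 7.30, 7.31 and 7.05 in TKI258 replicates 1, 2 and 3, against 7.47, 7.45 and 7.52 in water replicates 1, 2 and 3. TKI258 replicate 3 was again the lowest tumor. The mean was 7.22 ± 0.15 in TKI258 tumors and 7.48 ± 0.04 in water tumors (SD, n = 3 each), a log2 difference of -0.26 ± 0.10 (SE) and a 1.20-fold lower level (limma unadjusted p = 0.0368, adjusted p = 0.612).

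Dusp2 (PAC1), the fourth inducible nuclear enzyme and one known from activated lymphocytes, did not share this pattern. Its log2 signal was 6.01, 5.90 and 7.34 in TKI258 replicates 1, 2 and 3, against 6.70, 6.16 and 6.11 in water replicates 1, 2 and 3. The highest tumor of each group was TKI258 replicate 3 and water replicate 1, and the groups overlapped (0.09 ± 0.39, log2 difference ± SE). The same 2 tumors had the highest mean level of B cell markers: 4.89, 5.14 and 9.16 in TKI258 replicates 1, 2 and 3, against 7.12, 4.75 and 5.0 in water replicates 1, 2 and 3. The mean runs over 5 of the 6 listed B cell markers, and all 5 were higher on average in TKI258 tumors. Their lowest single value was 3.49, where the lowest signal of each array was 2.01 to 2.17, which is not a detection limit. Array medians were 6.38 to 6.44, and the B cell mean lay below them in TKI258 replicates 1 and 2 and water replicates 2 and 3. Whether the B cell markers were above background in those tumors was not tested. T and NK cell markers, 7 of 7 measured, ranged from 5.08 to 7.28 in TKI258 tumors and from 5.21 to 6.14 in water tumors, with their highest levels in the same 2 tumors. Without TKI258 replicate 3 the Dusp2 difference was -0.37 and the groups did not overlap, and without both high tumors it was -0.18. The part of these cells in the Dusp2 signal was not tested.

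The 3 ERK-selective cytoplasmic genes overlapped between groups. Dusp6 had a log2 signal of 11.11, 11.25 and 10.90 in TKI258 replicates 1, 2 and 3, against 11.05, 11.33 and 11.08 in water replicates 1, 2 and 3. Its ratio of TKI258 to water was 0.952, with a 95% confidence interval of 0.769 to 1.18. That interval includes no change and leaves room for a decrease to 0.769 of the water level. Dusp7 (MKPX) ranged from 9.23 to 9.37 in TKI258 tumors and from 9.30 to 9.55 in water tumors (-0.13 ± 0.10, log2 difference ± SE). Dusp9 (MKP4) was 7.59, 7.76 and 7.54 in TKI258 replicates 1, 2 and 3, against 7.72, 7.30 and 8.32 in water replicates 1, 2 and 3. The spread of Dusp9 was among water tumors, with an SD of 0.52 there and 0.12 in TKI258 tumors.

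The other JNK and p38 phosphatase genes did not follow Dusp10. Dusp8 ranged from 6.90 to 6.97 in TKI258 tumors and from 6.92 to 7.10 in water tumors (-0.05 ± 0.09, log2 difference ± SE). It was the only gene of the family with a second probe set, with a difference of 0.00 ± 0.12. Dusp16 (MKP7) ranged from 8.21 to 8.62 in TKI258 tumors and from 8.22 to 8.67 in water tumors (0.05 ± 0.16).

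**Figure D2:**
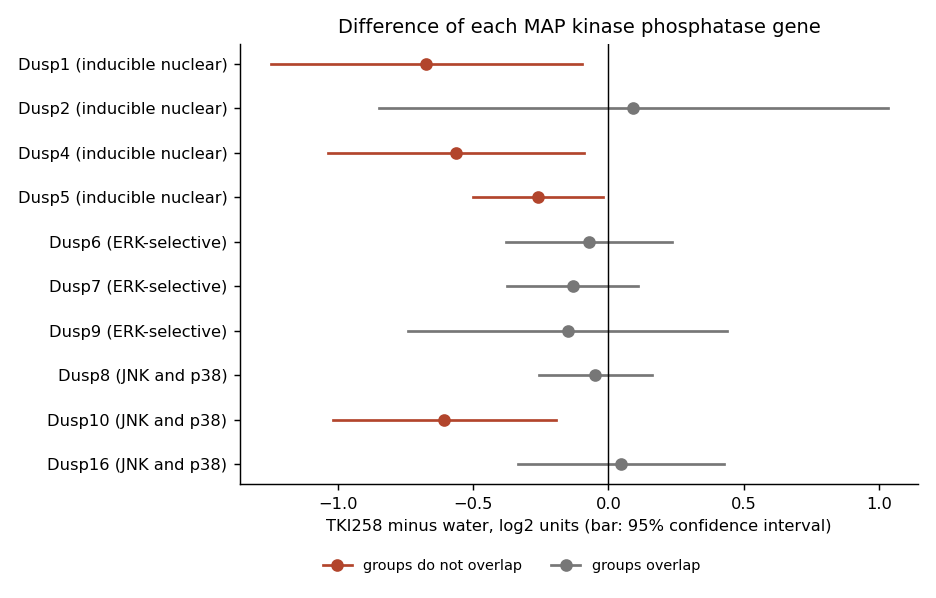
Log2 difference (TKI258 minus water) of each gene as a point with its 95% confidence interval from the limma model, with the role of the gene in brackets. The intervals of Dusp1, Dusp4, Dusp5 and Dusp10 lie below 0 before adjustment for multiple tests, and those of the other 6 genes include 0.

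Over the family, 8 of 10 genes had a lower mean in TKI258 tumors, against 43.4% of all genes. The 4 genes without overlap between groups were all lower, against 6.49% of all genes that were lower in this way, and 0 were higher, against 8.66%. At an unadjusted limma p under 0.05 the same 4 genes were lower, against 3.35% of all genes, and 0 were higher, against 3.79%. After adjustment over all probe sets 0 of 10 passed, and 0% of all probe sets did. The median difference of the family was -0.14, against 0.02 over all genes. The shares over all genes depended on signal level. A low-signal filter, which dropped probe sets with a mean below the median probe set, kept 9 of the 10 genes. Of the 10923 genes that it kept, 10.2% were lower without overlap, and the median difference was -0.03. At an unadjusted limma p under 0.05, 5.31% of them were lower. The counts of the 10 genes are on a chosen gene family whose members can vary together in a tumor. They also rested on few tumors: the number of genes with an unadjusted limma p under 0.05 was 4 without TKI258 replicate 1 or 2, 2 without TKI258 replicate 3 or water replicate 1, and 1 (Dusp10) without water replicate 2 or 3.

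**Figure D3:**
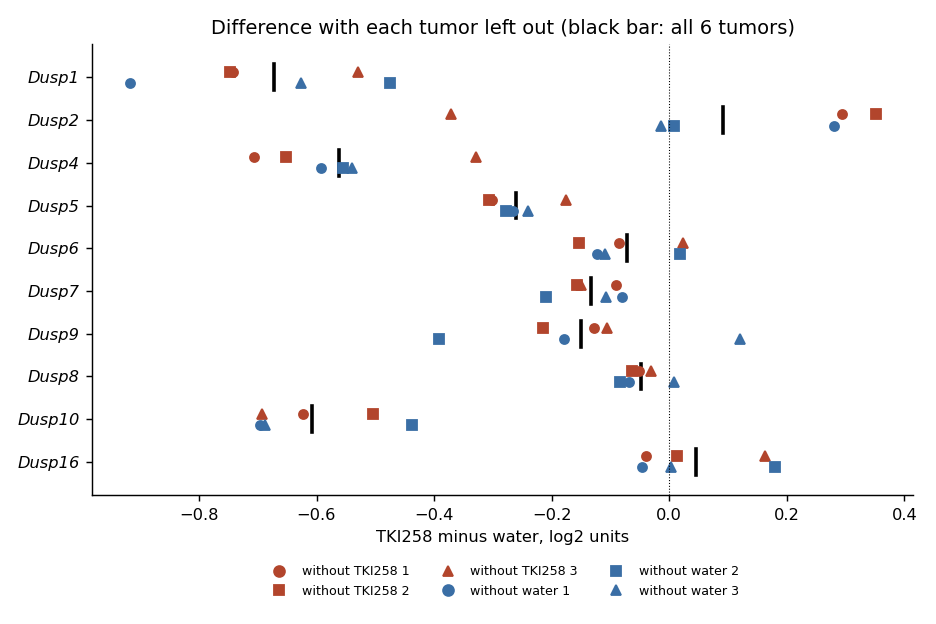
Log2 difference (TKI258 minus water) of each gene with each of the 6 tumors left out in turn, in the colour of the group and the shape of the replicate left out, beside the value with all tumors as a black bar. Dusp1, Dusp4, Dusp5, Dusp7 and Dusp10 stay below 0 in every case, and the largest move is that of Dusp2 without TKI258 replicate 3, to -0.37.

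Genes of the family were then set against each other within tumors. The log2 ratio of each of the other 9 genes to Dusp6 was compared between groups, a comparison chosen after the values were seen. The ratio was lower in every TKI258 tumor than in every water tumor for Dusp1 (difference -0.60), Dusp10 (-0.54) and Dusp4 (-0.49). The exact two-sided permutation p was 0.1 for each of these 3 ratios, the smallest that 3 tumors against 3 allow, and 0.3 after adjustment over 9 ratios. For Dusp5 the ratio groups overlapped (-0.19, exact permutation p = 0.3).

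Mean levels of cell type markers were set beside these values. TKI258 replicate 3 was the lowest of the 6 tumors for 6 of the 10 genes. It was also the tumor highest in B cell, T and NK cell, adipocyte, fibroblast and tumor epithelium markers, and lowest in neutrophil and macrophage markers. Water replicates 2 and 3 held the highest value of 4 genes each. Both were high in keratinocyte markers (7 of 7 measured, lowest value 4.06), whose mean was 5.57, 5.33 and 5.66 in TKI258 replicates 1, 2 and 3, against 5.43, 7.41 and 7.38 in water replicates 1, 2 and 3. Dusp1 followed the same order within the water group, with its lowest water value in replicate 1. Neutrophil markers (6 of 6 measured, lowest value 4.27) had a mean of 7.25, 6.93 and 6.30 in TKI258 replicates 1, 2 and 3, against 7.31, 7.92 and 8.0 in water replicates 1, 2 and 3. This mean did not overlap between groups, while of the single markers 2 were without overlap and the others overlapped. Macrophage markers (6 of 6 measured, lowest value 8.29) ranged from 10.03 to 10.23 in TKI258 tumors and from 10.13 to 10.78 in water tumors. Their maximum was in water replicate 2, the tumor with the highest Dusp10 and Dusp1. That tumor was also highest in endothelium, pericyte and smooth muscle, keratinocyte and skeletal muscle markers. Endothelium markers ranged from 7.57 to 8.08 in TKI258 tumors and from 7.78 to 8.29 in water tumors. Adipocyte markers (6 of 6 measured, lowest value 4.70) ranged from 6.88 to 8.40 in TKI258 tumors and from 5.56 to 6.75 in water tumors. Fibroblast markers (6 of 6 measured, lowest value 7.92) ranged from 10.48 to 10.70 in TKI258 tumors and from 10.18 to 10.37 in water tumors. Neither mean overlapped between groups, and of the single markers 4 of adipocytes and 2 of fibroblasts were without overlap. Markers of tumor epithelium (7 of 7 measured), which check the labelled tissue, ranged from 9.09 to 9.45 in TKI258 tumors and from 8.58 to 9.28 in water tumors. They went in both directions: without overlap 1 was lower and 2 were higher in TKI258 tumors. The part of these cell types in the phosphatase differences was not tested. With TKI258 replicate 3 and water replicate 1 both removed, the log2 differences were -0.78 for Dusp10, -0.77 for Dusp1, -0.36 for Dusp4 and -0.18 for Dusp5.

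**Figure D4:**
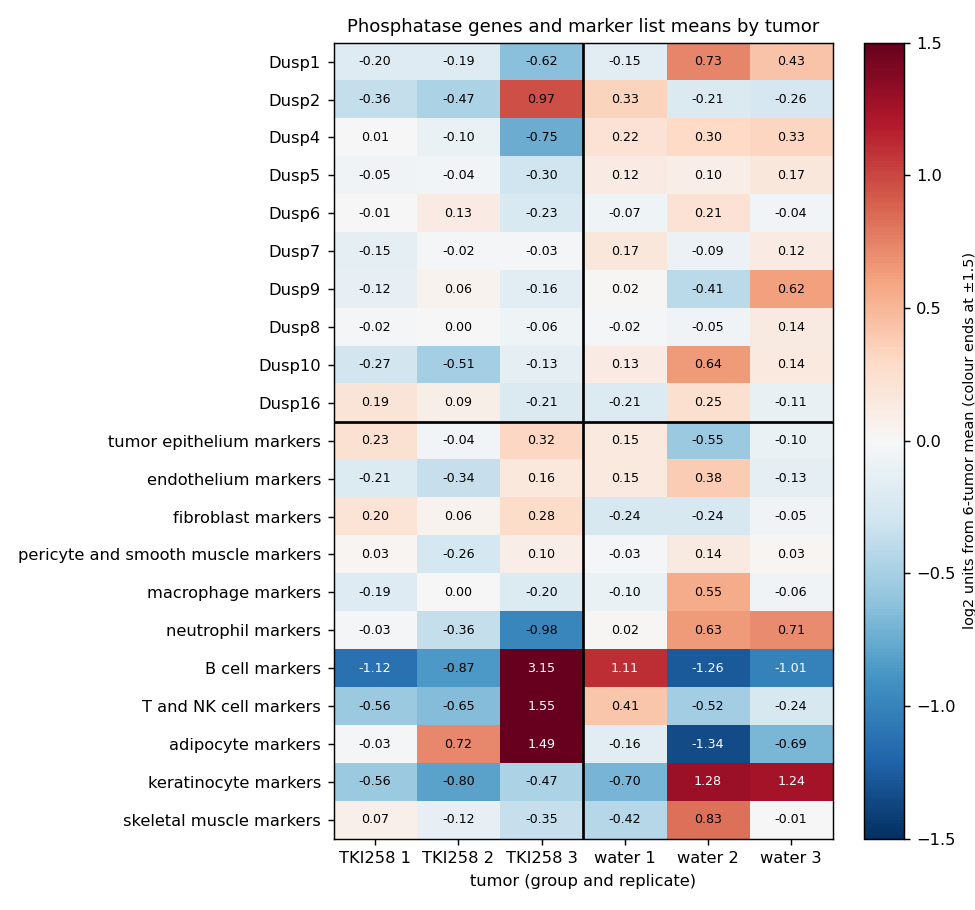
Deviation of each tumor from the mean of the 6 tumors, in log2 units, for the 10 phosphatase genes (upper rows) and for the mean of each marker list (lower rows), with TKI258 tumors left of water tumors. TKI258 replicate 3 stands out in B cell and T and NK cell markers and in Dusp2, and water replicates 2 and 3 stand out in keratinocyte markers.

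The genes with the most similar pattern over the 6 tumors were looked up among all 19937 genes, for each of the 6 phosphatase genes whose SD over the tumors was at least 0.2. Pearson's r over 6 tumors serves here only to rank genes. For Dusp2 they were Ltb, which encodes lymphotoxin beta of lymphocytes, and Igflr1 (both r = 0.997). For Dusp1 they were Arrdc3 (r = 0.995) and Fhdc1 (r = 0.993), for Dusp4 Zranb3 (r = 0.998) and Golga4 (r = 0.997), and for Dusp10 1810013L24Rik and Ik (both r = 0.995). For Dusp9 they were Smu1 (r = 0.996) and Vmn1r43 (r = 0.994), and for Dusp16 Mtln (r = 0.998) and Abhd6 (r = 0.992). With so few tumors a high r was not unique to the named genes. Of the 19937 genes searched, between 38 (Dusp9) and 229 (Dusp2) reached an r of 0.95, and all points share the same 6 arrays.

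The dual-specificity phosphatases outside the MAP kinase phosphatase group were split between both directions. Of 19 such genes 9 were lower, against 43.4% of all genes, and 10 higher, with a median difference of 0.00. At an unadjusted limma p under 0.05, 0 were lower, against 3.35% of all genes, and 1 was higher, against 3.79%. This gene was Dusp23 (0.26 ± 0.09, log2 difference ± SE, adjusted p = 0.586), which encodes a small atypical phosphatase. The pseudophosphatase gene Styx, whose product binds ERK without cleaving phosphate, differed by -0.25 ± 0.13, and Dusp14 by -0.18 ± 0.10. Both had every TKI258 tumor below every water tumor, with an unadjusted limma p above 0.05. The gap between groups was only 0.01 log2 units for Styx, a gene with 2 probe sets. Styx was without overlap in 12 of 14 alternative settings, and Dusp14 in 14 of 14. Without TKI258 replicate 3 they differed by -0.13 and -0.090. Dusp23, Dusp22 (0.13 ± 0.08) and Styxl1 (0.13 ± 0.09) had every TKI258 tumor above every water tumor; Dusp22 and Styxl1 were chosen after their values were seen. Without overlap there were thus 2 of 19 lower and 3 of 19 higher, against 6.49% and 8.66% of all genes.

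The kinase genes on whose products the phosphatases act had differences of -0.18 to 0.30. Of 8 measured MAP kinase genes 6 were lower, against 43.4% of all genes, and 2 higher (median -0.02). Of these 8 genes 0 had an unadjusted limma p under 0.05, against 3.35% of all genes lower and 3.79% higher. The JNK1 gene Mapk8 differed by -0.18 ± 0.11, the p38 delta gene Mapk13 by 0.30 ± 0.19 and the p38 beta gene Mapk11 by -0.14 ± 0.12 (log2 difference ± SE). All 3 values moved with single tumors: Mapk8 was -0.11 without TKI258 replicate 3, Mapk13 was 0.081 without water replicate 2, and Mapk11 ranged from -0.24 (TKI258 replicate 1 left out) to -0.057 (TKI258 replicate 2 left out). Of 14 measured upstream genes (MAP kinase kinases, RAF, RAS and adaptors), 11 were lower, against 43.4% of all genes, and 3 higher (median -0.06). Without overlap 1 was lower and 2 were higher, against 6.49% and 8.66% of all genes. At an unadjusted limma p under 0.05, 1 was lower (Sos2) and 1 higher (Araf), against 3.35% and 3.79%. Araf (0.26 ± 0.10) and Braf (0.16 ± 0.08), which encode RAF kinases, had every TKI258 tumor above every water tumor, and Sos2 (-0.21 ± 0.08), a guanine nucleotide exchange factor for RAS, had every TKI258 tumor below. The limma adjusted p was 0.604 for Araf, 0.658 for Braf and 0.614 for Sos2.

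Among 24 other feedback and target genes of ERK, 17 were lower, against 43.4% of all genes, and 7 higher (median -0.13). At an unadjusted limma p under 0.05, 2 were lower, against 3.35% of all genes, and 0 were higher, against 3.79%. These were the Sprouty gene Spry4 (-0.61 ± 0.21, adjusted p = 0.591) and the AP-1 gene Fos (-0.45 ± 0.18, adjusted p = 0.614). The ETS factor genes Etv4 and Etv5 differed by -0.44 ± 0.19 and -0.08 ± 0.15 (log2 difference ± SE). Without TKI258 replicate 3 the Etv4 difference was -0.23. Chosen after their values were seen, Spry1, another Sprouty gene, had the largest difference of the list, upward with overlapping groups (1.00 ± 0.50), and the early growth response gene Egr3 had every TKI258 tumor above every water tumor (0.20 ± 0.09). Without overlap 1 gene was lower (Spry4) and 1 higher (Egr3), against 6.49% and 8.66% of all genes. The median of these ERK genes changed sign without TKI258 replicate 3, to 0.02.

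Among 14 targets of JNK, p38 and stress signalling, 9 were lower, against 43.4% of all genes, and 5 higher (median -0.13). Klf6, Jun and Atf3 were lower with an unadjusted limma p under 0.05, 3 of 14 against 3.35% of all genes, and without overlap between groups, 3 of 14 against 6.49%. None of the list was higher by either measure, against 3.79% and 8.66%. Klf6, a zinc finger transcription factor gene induced by stress, was 9.44, 9.62 and 9.36 in TKI258 replicates 1, 2 and 3, against 9.79, 9.83 and 9.88 in water replicates 1, 2 and 3 (limma adjusted p = 0.569). Jun, the AP-1 subunit that JNK phosphorylates, was 9.96, 10.09 and 9.66 in TKI258 replicates 1, 2 and 3, against 10.17, 10.29 and 10.63 in water replicates 1, 2 and 3 (limma adjusted p = 0.594). Atf3, a stress-induced partner of Jun, differed by -0.53 ± 0.21 (limma adjusted p = 0.615). Without water replicate 3 the Atf3 difference was -0.31, and its unadjusted limma p was under 0.05 in 7 of 14 alternative settings, against 14 of 14 for Klf6 and 11 of 14 for Jun. As with Dusp1, the TKI258 minimum of all 3 genes was in replicate 3, and water replicate 1 was the lowest water tumor.

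**Figure D5:**
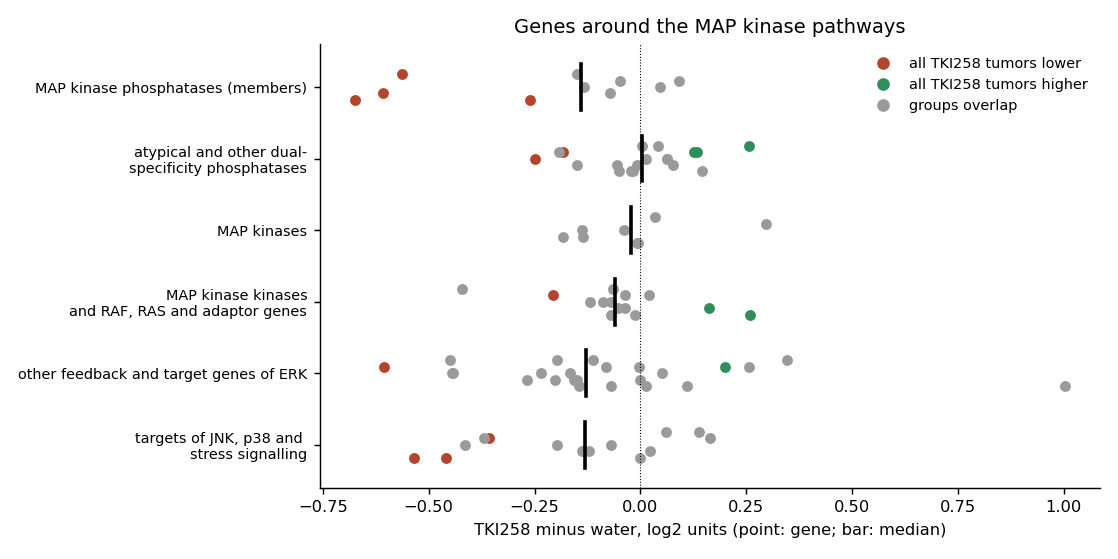
Log2 difference (TKI258 minus water) of every measured gene of the phosphatase family and of 5 lists around it, with the median as a black bar and the colour showing whether the groups overlap. The phosphatase family has 4 genes with all TKI258 tumors lower and a median of -0.14, and the other dual-specificity phosphatases have a median of 0.00.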

How the data were processed

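RNA of 6 individual 4T1 tumors (3 TKI258, 3 water; biological replicates in the titles) was hybridized to 1 array each. The values are log2 signals per probe set that the authors deposited and, per the submitters' processing notes, made with RMA, which corrects background, normalizes the arrays to each other and combines the probes of a set; affy and limma are named there too. No source used here gives their versions or the build. The table held 34760 probe sets, of which 21640 name 1 gene in the platform annotation. By Entrez number 21553 matched the RefSeq table (GRCm38.p6). The precision is limited by the number of arrays, whose median signals were 6.38 to 6.44. Pearson correlations between arrays were 0.973 to 0.993, and no 2 arrays were identical. The lowest was between TKI258 replicate 3 and water replicate 2. TKI258 replicate 3 correlated at 0.983 and 0.981 with TKI258 replicates 1 and 2, which correlated at 0.993 with each other.

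TKI258 was compared with water in limma 3.58.1 (R 4.3.3), with group as the only term, eBayes, two-sided tests and Benjamini-Hochberg adjustment over all probe sets at 0.05. The SE and confidence intervals are the moderated ones. The fit was tested on simulated data. Members and gene lists were chosen with earlier results of these data known. Named are all members, the 3 genes of each other list with the smallest p, Spry4, Etv4 and Etv5, and 2 genes alike in pattern for each member with an SD of at least 0.2. Some listed genes were not analysed here. Alternatives were a low-signal filter, quantile normalization, median centring, a replicate block, a trend and robust prior, array weights, each tumor left out, 2 tumors left out together, averaging a gene's probe sets, and other thresholds.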

Additional observations from a re-analysis of the deposited data

How the results depend on the processing

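Dusp1, Dusp4, Dusp5, Dusp7 and Dusp10 were lower under each of the 14 alternative settings. Dusp1, Dusp4, Dusp5 and Dusp10 stayed without overlap between groups under quantile normalization and median centring. The other settings could not make them overlap, because they left the values of these 4 genes unchanged or only removed tumors. The limma adjusted p of these 4 genes ranged from 0.379 to 0.905. Leaving out tumors makes separation easier: without single tumors 22.8% to 27.8% of all genes did not overlap, against 15.1% with all 6. The number of the 10 genes without overlap was 4 to 5 and the number lower 7 to 9 without single tumors. No member passed an adjusted p of 0.05 or 0.1 under any setting, and with all tumors 4 had an unadjusted limma p under 0.05. Over all probe sets 0 passed with all tumors, 0 to 3 without single tumors (3 without water replicate 1) and 1 without both TKI258 replicate 3 and water replicate 1, while 2803 had an unadjusted limma p under 0.05.

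Directions changed for genes near 0. Dusp2 was -0.22 with array weights, -0.18 without both TKI258 replicate 3 and water replicate 1, and -0.37 to 0.35 without single tumors; it fell out under the low-signal filter. Dusp6 was 0.016 with array weights and -0.15 to 0.023 without single tumors. Dusp8 ranged from -0.084 to 0.0084, Dusp9 from -0.39 to 0.12 and Dusp16 from -0.046 to 0.18 without single tumors. Etv5 was 0.00062 with array weights, 0.068 without both tumors and -0.22 to 0.077 without single tumors. The cause was not tested. The replicate numbers are only names here: deviations of same-numbered tumors correlated at -0.23, 0.19 and 0.01. With the replicate block 0 probe sets and 0 members passed, and 3 members had an unadjusted limma p under 0.05 (Dusp5 at 0.0715).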
